A study of Mus musculus with 12 samples.

Results

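The genes described here are 9 genes of the club cell, the secretory cell of the small airways: the secretoglobins Scgb1a1, Scgb3a1 and Scgb3a2, the enzymes Cyp2f2, Aldh1a1 and Pon1, the BPI fold proteins Bpifa1 and Bpifb1, and the receptor Cckar. They were chosen by gene name rather than by a threshold on a value, with earlier results of these data known, and all 9 were measured among 19937 genes, each by 1 probe set that carries a single gene symbol. RNA from whole lung of 12 Balb/c mice was hybridised to Affymetrix mouse Gene 1.0 ST arrays, 1 array per mouse and 3 mice per group. Neutrophilic mice received house dust mite extract into the nose in 4 weekly applications, each with 7.5 development units (DU) of Der f and 7.5 DU of Der p. Mixed mice followed the same intranasal schedule at 0.75 DU of each extract. Eosinophilic mice were sensitised by 3 intraperitoneal injections of 0.75 DU of each extract on 1.5 mg of aluminium hydroxide, and were challenged through the nose from day 26 to day 28. Control mice received PBS into the nose. The eosinophilic model thus differed from the other models in route and adjuvant as well as in the response it is named for.

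Club cells line the bronchioles, secrete small proteins into the airway fluid and carry much of the lung's capacity to oxidise inhaled chemicals. They also serve as progenitors, and in allergic airways they can take on the mucus-secreting goblet cell state. Secretoglobins and BPI fold proteins belong to the secreted layer, cytochrome P450 and aldehyde dehydrogenase enzymes to the detoxifying one. In RNA from whole lung, fewer cells of a type and less RNA per cell cannot be told apart.

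The array of eosinophilic mouse 7 stood apart. Its log2 values had an SD of 0.995 over all probe sets and a Pearson correlation of 0.356 with the median of the other arrays. Eosinophilic mouse 9 and neutrophilic mouse 23 had SDs of 1.52 and 1.51, and the other 9 arrays had SDs between 1.77 and 2.04. Every test was therefore run for all 12 arrays and for the 11 arrays without mouse 7. Many values, above all those of genes beside the 9, are printed only for the 11 arrays. Both fits used limma with p adjusted by the Benjamini-Hochberg method over 19937 genes, and "called" means an adjusted p under 0.05. Each difference is the log2 value of the first-named group minus that of the second, the 3 models share the control arrays, and with 3 arrays a group the precision is limited by how few arrays there are. Where lungs are said to lie above or below all control lungs, the share of all genes that separate so was not counted.

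Pon1, Cckar and Scgb3a2 were lower than in control lungs with all 12 arrays: Pon1 in all 3 models, Cckar in the neutrophilic and mixed models, and Scgb3a2 in the eosinophilic model. Without mouse 7, Bpifb1 was also called higher in all 3 models, and Cyp2f2 and Aldh1a1 lower in the neutrophilic model. Scgb1a1, the protein by which club cells are usually recognised, was not called in any comparison in either fit.

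In the neutrophilic model 2 of the 9 genes were called lower and 0 higher, where 1.45% of all genes were called lower and 0.662% higher. Without mouse 7 these counts were 4 lower and 1 higher, against 7.23% and 2.24% of all genes. In the mixed model 2 were called lower and 0 higher, against 0.145% and 0.326% of all genes, and without mouse 7 the counts were 2 lower and 1 higher, against 1.57% and 1.41%. In the eosinophilic model 2 were called lower and 0 higher, against 0.421% and 0.0752% of all genes, and without mouse 7 the counts were 2 lower and 1 higher, against 0.883% and 0.451%. At an unadjusted p under 0.05, limma counted 4, 3 and 7 of the 9 genes in the neutrophilic, mixed and eosinophilic models with 12 arrays, where it counted 14.7%, 7.95% and 28.2% of all genes. Without mouse 7 it counted 8, 6 and 8 of the 9, against 23.1%, 12.9% and 16.4% of all genes. The median difference of the 9 genes without mouse 7 was -1.51 in the neutrophilic, -0.35 in the mixed and -1.51 in the eosinophilic model, where the median over all genes was 0.048, 0.0046 and 0.012. Most genes were dimmer than the 9. In control lungs the 9 had means between 7.35 and 13.81, where the medians of all probe sets were 4.94 to 5.08.

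A moderated F test for any difference among the 4 groups called Pon1, Scgb3a2 and Cckar, 3 of the 9, with all 12 arrays, where 0.883% of all genes were called. Without mouse 7 it called 7 of the 9, all but Scgb1a1 and Bpifa1, against 4.6% of all genes. Pon1 had rank 4 by p among the 19937 genes with 12 arrays and rank 20 without mouse 7.

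**Figure D1:**
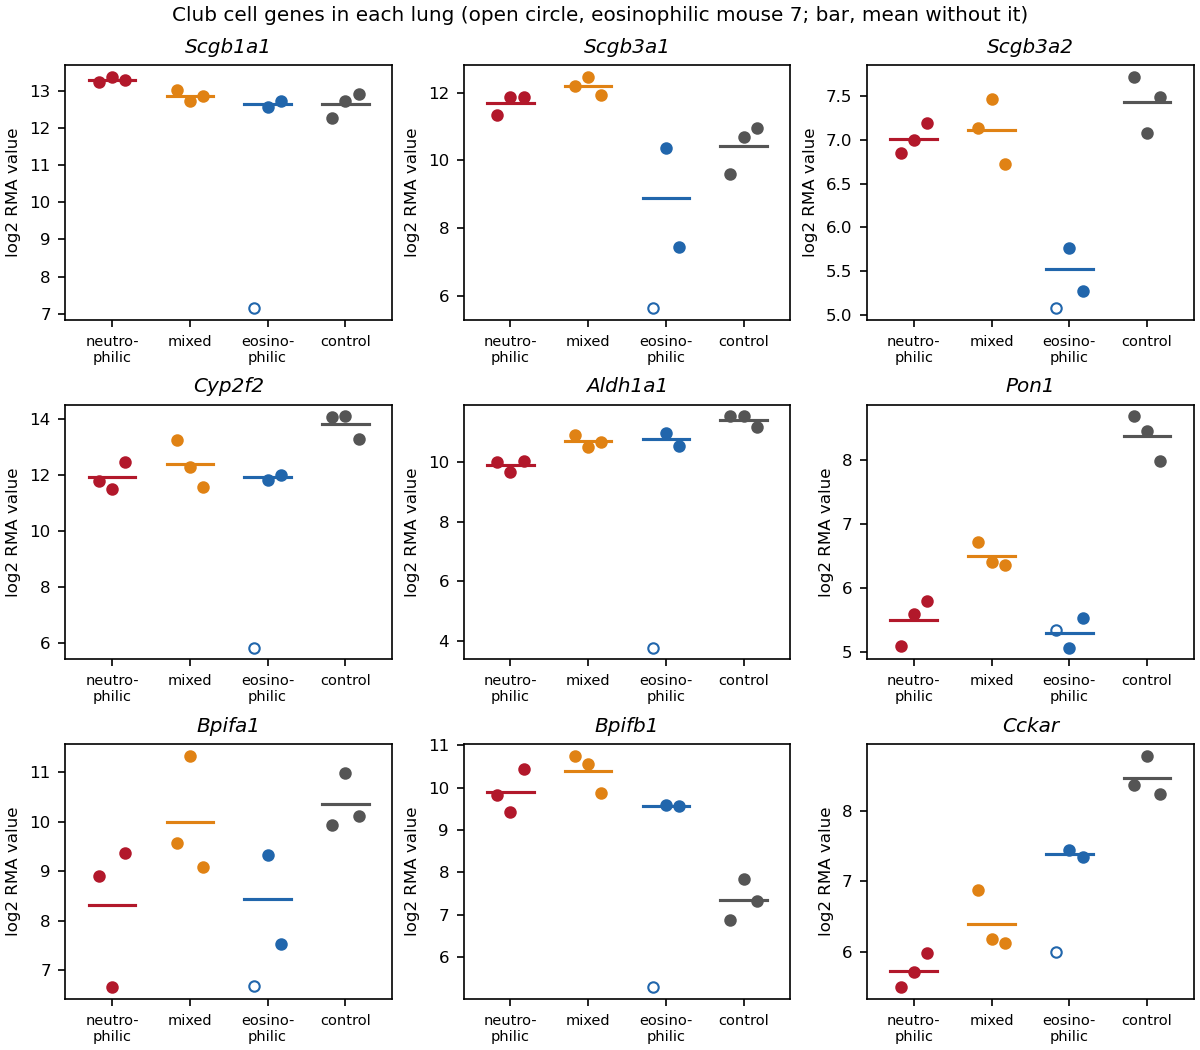
Log2 RMA value of each of the 9 genes in each lung, with groups from left to right neutrophilic, mixed, eosinophilic and control. Each point is 1 mouse, the open circle is eosinophilic mouse 7 and the bar is the group mean without it. Pon1, Cckar, Cyp2f2 and Aldh1a1 lie below the control values in every treated lung, and Bpifb1 lies above them in every treated lung but mouse 7. The share of all genes that separate from control in this way was not counted.

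**Figure D2:**
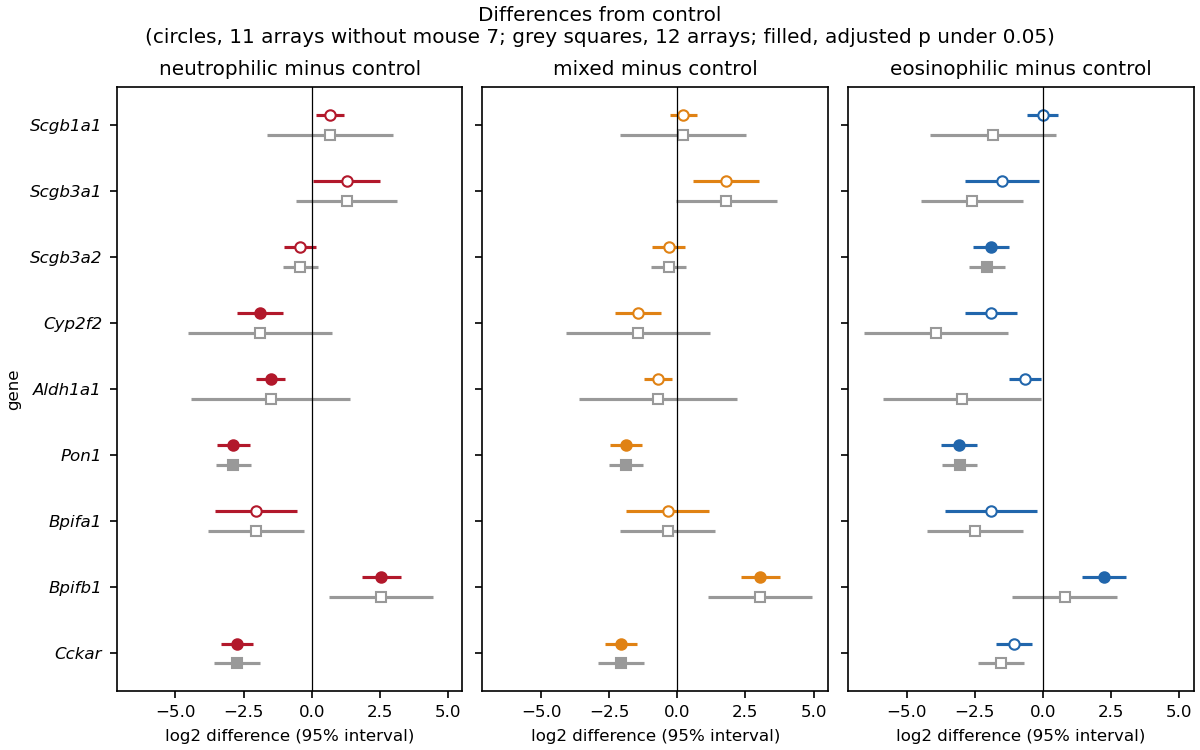
Log2 difference from control of each gene in the neutrophilic, mixed and eosinophilic models, with 95% confidence intervals from limma. Coloured circles use 11 arrays without mouse 7, grey squares use all 12, and filled symbols have an adjusted p under 0.05; the grey intervals are wider for the genes in which mouse 7 lay far from the other arrays.

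Scgb1a1 encodes uteroglobin, the main secretory protein of club cells. Its log2 values were 13.25, 13.38 and 13.28 in neutrophilic lungs, 13.01, 12.73 and 12.86 in mixed lungs, 7.15, 12.55 and 12.72 in eosinophilic lungs and 12.28, 12.74 and 12.91 in control lungs. The 3 neutrophilic lungs lay above every control lung, the mixed lungs overlapped the control range, and mouse 7, the first of the eosinophilic values, was far below all others. The difference of the neutrophilic from the control lungs was 0.66 ± 0.24 (SE) without mouse 7, with a 95% interval of 0.15 to 1.17 and an adjusted p of 0.104 in limma. The eosinophilic difference was -1.84 with all 12 arrays and -0.0054 without mouse 7, with an interval of -0.58 to 0.57 for the 11 arrays, so mouse 7 set that value.

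Scgb3a1, another secretoglobin of the airway lining, was highest in the mixed lungs. Its values were 11.34, 11.86 and 11.88 in neutrophilic lungs, 12.21, 12.47 and 11.93 in mixed lungs, 5.62, 10.37 and 7.43 in eosinophilic lungs and 9.60, 10.68 and 10.95 in control lungs. Neutrophilic and mixed lungs lay above all control lungs, while eosinophilic mouse 8 fell inside the control range and mice 7 and 9, 2 of the arrays of low range, fell below it. The differences from control without mouse 7 were 1.28 ± 0.57 in the neutrophilic, 1.79 ± 0.57 in the mixed and -1.51 ± 0.63 in the eosinophilic model (SE), with adjusted p of 0.191, 0.128 and 0.256 in limma. When all 3 arrays of low range were left out, Scgb3a1 was called higher in the neutrophilic and mixed models at adjusted p of 0.00731 and 0.00132, and the eosinophilic difference, which then rested on mouse 8 alone, was -0.045. The mixed lungs were above the eosinophilic lungs by 4.40 with 12 arrays and by 3.31 without mouse 7, at adjusted p of 0.191 and 0.141.

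Scgb3a2 encodes a secretoglobin that is also known from the developing airway. Its values were 6.85, 7.00 and 7.20 in neutrophilic lungs, 7.14, 7.47 and 6.72 in mixed lungs, 5.07, 5.76 and 5.27 in eosinophilic lungs and 7.72, 7.08 and 7.49 in control lungs. All 3 eosinophilic lungs lay below every other lung, and neutrophilic and mixed lungs overlapped the control range. The medians of all probe sets on the 3 eosinophilic arrays were 5.50, 5.01 and 5.24, so the gene was near the middle of its arrays there. On mouse 7, whose values had a narrow range, such a value gave no separate support for a fall. The gene fell by 2.06 ± 0.30 in the eosinophilic model (SE, log2 scale), 4.18-fold lower than in control lungs, at an adjusted p of 0.0347 in limma, and by 1.91 ± 0.31 without mouse 7 at an adjusted p of 0.0115. On mouse 8, the eosinophilic array with the usual range, the value was 5.76, below every lung of the other groups. A fit without the 3 arrays of low range gave -1.67 at an adjusted p of 0.017, but its eosinophilic arm was mouse 8 alone, which was assumed to vary as the other groups did. The call was lost when control mouse 1, 2 or 3 or eosinophilic mouse 9 was left out while mouse 7 stayed in, at adjusted p of 0.267, 0.141, 0.111 and 0.0991. It was also lost when each array was centred on its median (0.0594) and in a fit of only those groups (0.329). The differences from control were -0.42 in the neutrophilic and -0.32 in the mixed model without mouse 7, with intervals of -1.01 to 0.18 and -0.91 to 0.27. The neutrophilic lungs were above the eosinophilic lungs by 1.50 and the mixed lungs by 1.59 without mouse 7, at adjusted p of 0.093 and 0.141, so a difference between models was not called.

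Among the detoxifying enzymes Pon1 had the largest called difference from control without mouse 7. Pon1 encodes paraoxonase 1, an enzyme that hydrolyses organophosphates and lactones and is best known from liver and serum. Its values were 5.10, 5.59 and 5.81 in neutrophilic lungs, 6.73, 6.41 and 6.36 in mixed lungs, 5.35, 5.07 and 5.54 in eosinophilic lungs and 8.69, 8.47 and 7.98 in control lungs. Every treated lung lay below every control lung, and the mixed lungs lay between the control lungs and those of the other models. The neutrophilic and eosinophilic values were near the medians of all probe sets, which lay between 4.94 and 5.50. Mouse 7, whose values had a narrow range, gave no separate support for the fall.

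The neutrophilic difference of Pon1 was -2.88 ± 0.29 (SE), 7.35-fold lower, at an adjusted p of 0.000963 in limma, and it was called under all 15 settings tried, with an adjusted p of at most 0.0124. The mixed difference was -1.88 ± 0.29, 3.67-fold lower, at an adjusted p of 0.016, and 0.00254 without mouse 7. That call was lost when control mouse 1 or 2 or mixed mouse 15, 16 or 17 was left out while mouse 7 stayed in, at adjusted p between 0.0792 and 0.129, and after median centring, at 0.0527. The eosinophilic difference was -3.06 ± 0.29, 8.34-fold lower, at an adjusted p of 0.00305, and -3.08 ± 0.31 at 0.000229 without mouse 7, but 0.329 in a fit of only those groups. The mixed lungs were above the eosinophilic lungs by 1.20 and the neutrophilic lungs below the mixed lungs by 1.001 without mouse 7 (95% intervals 0.53 to 1.87 and -1.60 to -0.40), at adjusted p of 0.372 and 0.454, so neither step was called.

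Neither of the related paraoxonases, Pon2 and Pon3, was called by limma in any model. At an unadjusted p under 0.05 it counted 1 of the pair in the eosinophilic model with 12 arrays and 1 in the neutrophilic model without mouse 7. The shares of all genes there were 28.2% and 23.1%. Without mouse 7, Pon3 differed from control by -0.71 in the neutrophilic, -0.32 in the mixed and -0.41 in the eosinophilic model, and Pon2 by -0.56, -0.14 and -0.75, at adjusted p of 0.101 or more. The 4 liver genes Alb, Apoa1, Ttr and Apob, measured because liver is a known source of Pon1, averaged between 4.20 and 5.08 in neutrophilic, 4.15 and 4.46 in mixed, 4.10 and 5.03 in eosinophilic and 3.99 and 4.15 in control lungs, while the medians of all probe sets lay between 4.94 and 5.50. Limma called 0 of the 4 in any model, with 0 at an unadjusted p under 0.05 in either fit, and none of their group means was higher in control lungs than in the treated lungs without mouse 7. These 4 genes were dim, and a part of liver RNA in the Pon1 values was not tested.

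Cyp2f2 encodes the cytochrome P450 enzyme that activates naphthalene in mouse club cells. Its values were 11.79, 11.49 and 12.46 in neutrophilic lungs, 13.24, 12.28 and 11.58 in mixed lungs, 5.82, 11.83 and 12.001 in eosinophilic lungs and 14.05, 14.08 and 13.29 in control lungs. All treated lungs lay below all control lungs, mixed mouse 15 only just. Without mouse 7 the difference was -1.89 ± 0.40 in the neutrophilic model, 3.71-fold lower, at an adjusted p of 0.00976 in limma. It was -1.44 ± 0.40 in the mixed model at an adjusted p of 0.0722, and -1.90 ± 0.44 in the eosinophilic model at 0.0564 (SE). For the 12 arrays the adjusted p values were 0.539, 1 and 0.109, and the SE was 1.22. Over 15 settings the neutrophilic difference ran between -2.17 and -0.999, and it was called under 3 of them. With the array SD as a covariate the eosinophilic difference had an adjusted p of 0.586 in limma.

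Aldh1a1 encodes a retinaldehyde dehydrogenase that also clears toxic aldehydes. Its values were 9.97, 9.64 and 10.04 in neutrophilic lungs, 10.90, 10.51 and 10.66 in mixed lungs, 3.77, 10.97 and 10.52 in eosinophilic lungs and 11.52, 11.52 and 11.15 in control lungs. All treated lungs lay below all control lungs, and the neutrophilic lungs lay below every other lung but mouse 7. Without mouse 7 the neutrophilic difference was -1.51 ± 0.25 (SE), 2.85-fold lower, at an adjusted p of 0.0023 in limma. The mixed difference was -0.71 ± 0.25 and the eosinophilic -0.65 ± 0.28, at adjusted p of 0.178 and 0.26. Mouse 7 decided the neutrophilic call between these fits, since with 12 arrays the adjusted p was 0.66 at an SE of 1.34. Over 15 settings the neutrophilic difference ran between -1.63 and -0.52, and it was called under 3 of them. With the array SD as a covariate the eosinophilic difference had an adjusted p of 0.953 in limma. The neutrophilic lungs were below the mixed lungs by 0.80 and below the eosinophilic lungs by 0.86 without mouse 7, at adjusted p of 0.498 and 0.429.

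Aldh1a3, which makes retinoic acid from the same substrate, went the other way. Its values were 7.15, 6.94 and 7.67 in neutrophilic lungs, 8.15, 8.23 and 7.24 in mixed lungs, 6.17, 7.89 and 7.04 in eosinophilic lungs and 4.81, 5.13 and 5.02 in control lungs, so every treated lung lay above every control lung. Aldh1a3 rose by 2.26 ± 0.42 in the neutrophilic and by 2.89 ± 0.42 in the mixed model with 12 arrays (SE, log2 scale), at adjusted p of 0.0187 and 0.0135 in limma. In the eosinophilic model its difference was 2.05 ± 0.42 at an adjusted p of 0.0547, and 2.48 ± 0.36 at 0.00743 without mouse 7. Of 15 other aldehyde dehydrogenases, Aldh1a3 was the 1 called higher in each model without mouse 7. Another 4 were called lower in the neutrophilic model (Aldh6a1, Aldh3a2, Aldh1a7 and Aldh7a1), 0 in the mixed model and 1, Aldh6a1, in the eosinophilic model. The median difference of the 15 was -0.53 in the neutrophilic, -0.20 in the mixed and -0.32 in the eosinophilic model. In that fit 2.24%, 1.41% and 0.451% of all genes were called higher and 7.23%, 1.57% and 0.883% lower.

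Other genes of xenobiotic metabolism were measured beside the 3 enzymes, on a list that also holds genes of other lung cells. Of 23 tested, 11 were called lower and 1 higher in the neutrophilic model without mouse 7, with a median of -0.96 where the median of all genes was 0.048. In the mixed model 3 were lower and 1 higher with a median of -0.55, and in the eosinophilic model 3 were lower and 0 higher with a median of -0.77. The list averaged between 8.31 and 8.50 in control lungs, where the medians of all probe sets were 4.94 to 5.08, so most genes were dimmer. Alveolar type 1 markers had medians of -0.96, -0.83 and -0.80 in the same fit and order, and general epithelial markers -0.32, 0.044 and -0.24. On 12 arrays 2, 1 and 0 of the 23 were called lower and 0 higher in the neutrophilic, mixed and eosinophilic models. Limma then counted 16 of the 23 in the eosinophilic model at an unadjusted p under 0.05, against 28.2% of all genes. The shares of all genes called lower were 7.23%, 1.57% and 0.883% without mouse 7, and 1.45%, 0.145% and 0.421% on 12 arrays.

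Flavin monooxygenases oxidise nitrogen and sulphur groups of foreign compounds. Fmo1 had log2 values of 8.24, 8.34 and 8.92 in neutrophilic lungs, 9.79, 9.02 and 9.18 in mixed lungs, 7.11, 9.60 and 9.06 in eosinophilic lungs and 11.26, 11.29 and 10.82 in control lungs, without overlap between treated and control lungs. It fell by 2.62 ± 0.29 in the neutrophilic, 1.79 ± 0.29 in the mixed and 1.80 ± 0.33 in the eosinophilic model without mouse 7 (SE), at adjusted p of 0.000222, 0.00492 and 0.0207 in limma. Fmo5 fell by 1.63, 1.49 and 1.43 in the same order, at 0.00244, 0.00837 and 0.0349, and Fmo2 by 2.06 in the neutrophilic model at 0.00456. Ephx1, the microsomal epoxide hydrolase, fell by 1.24 in the neutrophilic model at 0.00973 and by 1.56 in the eosinophilic model at 0.0217, all without mouse 7. Gsto1, a glutathione transferase, was the 1 gene of the list called higher, by 1.16 in the neutrophilic and 1.24 in the mixed model, at 0.0238 and 0.0363. Cyp1b1, another cytochrome P450, had larger differences of 1.36 and 1.64 that were not called, at 0.134 and 0.14.

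**Figure D3:**
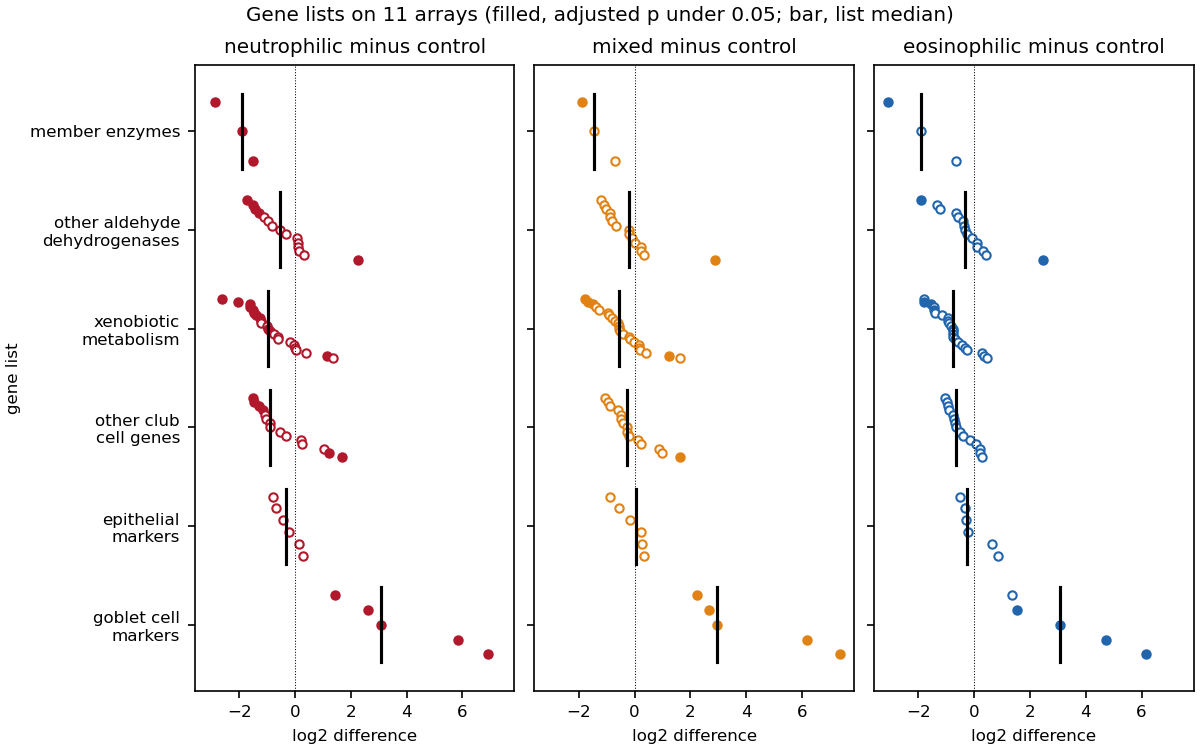
Log2 difference from control without mouse 7 for the 3 member enzymes and 5 other gene lists in the neutrophilic, mixed and eosinophilic models. Each point is a gene, filled where the adjusted p was under 0.05, and the bar is the list median; xenobiotic genes had medians of -0.96, -0.55 and -0.77, and goblet cell genes lay to the right in all 3 panels.

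Bpifa1 and Bpifb1 encode secreted proteins of the BPI fold family, which bind lipids and bacterial products on the airway surface. They are near neighbours in a cluster of 13 BPI fold genes, with Bpifa5 between them, and of the 13 only Bpifb1 was called against control without mouse 7. Promoter sequences of RefSeq (GRCm38.p6) are shown for both, because the pair was called differently within 1 cluster, and for Pon1, which had the largest called fall. Each run is the upstream part of the window before an annotated start, on the strand of the gene, and Bpifb1 has a pair of annotated starts. The run of Pon1 has 209 bases and stops 41 bases short of that start, where the annotated gene begins, while the other runs have 250 bases and reach their start. Capitals mark matches on either strand to TATTTAC or TGTTTAC (the FOXA motif), TTGCNNAA (C/EBP), TTC and GAA separated by 4 bases (STAT6) and TATAAA (the TATA box). The motifs were chosen after the sequences had been read.
Bpifa1, chr2:154142630-154142879, plus strand: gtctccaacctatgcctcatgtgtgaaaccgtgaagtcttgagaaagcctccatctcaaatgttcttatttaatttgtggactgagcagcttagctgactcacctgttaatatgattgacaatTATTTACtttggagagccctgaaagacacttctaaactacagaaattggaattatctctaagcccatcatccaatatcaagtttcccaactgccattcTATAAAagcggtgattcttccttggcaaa
Bpifb1, first start, chr2:154190568-154190817, plus strand: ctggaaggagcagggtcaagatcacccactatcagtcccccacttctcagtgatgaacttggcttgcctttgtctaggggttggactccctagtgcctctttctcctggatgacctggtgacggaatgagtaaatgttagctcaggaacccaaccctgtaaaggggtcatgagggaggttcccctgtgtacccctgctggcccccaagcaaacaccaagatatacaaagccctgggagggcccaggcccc
Bpifb1, second start, chr2:154200130-154200379, plus strand: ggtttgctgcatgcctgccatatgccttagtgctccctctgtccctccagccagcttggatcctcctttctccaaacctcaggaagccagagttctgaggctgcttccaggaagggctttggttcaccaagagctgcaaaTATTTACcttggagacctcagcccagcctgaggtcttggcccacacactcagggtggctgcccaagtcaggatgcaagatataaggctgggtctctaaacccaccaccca
Pon1, chr6:5193988-5194196, minus strand: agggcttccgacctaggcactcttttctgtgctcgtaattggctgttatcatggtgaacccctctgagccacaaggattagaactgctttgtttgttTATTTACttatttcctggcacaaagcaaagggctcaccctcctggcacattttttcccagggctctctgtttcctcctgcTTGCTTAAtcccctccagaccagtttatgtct

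TATTTAC began 127 bases before the start of Bpifa1, 110 bases before the second start of Bpifb1 and 153 bases before that of Pon1, counted to the start and not to the end of the printed run, in each case on the strand of the gene. The Bpifa1 window also held TATAAA 29 bases before the start, and that of Pon1 held TTGCNNAA 73 bases before. The window at the first start of Bpifb1 held none of the motifs searched. Over the 8 windows found for 6 of the 9 genes, 4 held the FOXA motif, 2 the C/EBP motif, 1 the TATA box and 0 the STAT6 motif. Over 32817 windows of 250 bases before a start, 5.8% held the FOXA motif, 9.6% C/EBP, 12.4% the TATA box and 5.9% STAT6. Scgb1a1, Scgb3a2 and Cckar were not matched. Because the motifs were chosen after these sequences had been read, the counts and the shares beside them are no test of enrichment. These matches describe the letters in the windows and show no binding.

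Bpifb1 had log2 values of 9.83, 9.43 and 10.43 in neutrophilic lungs, 10.75, 10.55 and 9.86 in mixed lungs, 5.28, 9.59 and 9.56 in eosinophilic lungs and 6.88, 7.85 and 7.31 in control lungs. All treated lungs but mouse 7 lay above all control lungs, and mouse 7 lay below them. Without mouse 7 Bpifb1 rose by 2.55 ± 0.34 in the neutrophilic, 3.04 ± 0.34 in the mixed and 2.23 ± 0.37 in the eosinophilic model (SE), which is 5.86-fold, 8.23-fold and 4.68-fold. The adjusted p values were 0.000653, 0.0003 and 0.0147 in limma. With all 12 arrays the differences were 2.55, 3.04 and 0.80 at an SE of 0.88, with adjusted p of 0.172, 0.207 and 0.509, so none was called. The neutrophilic and mixed differences were called with mouse 7 kept in when the array SD was a covariate, at adjusted p of 0.0044 and 0.00512, and in fits of only the groups compared, which hold no eosinophilic array, at 0.0025 and 2.12e-05. The eosinophilic difference was called only in fits that left mouse 7 out.

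Bpifa1 had log2 values of 8.91, 6.65 and 9.37 in neutrophilic lungs, 9.56, 11.33 and 9.09 in mixed lungs, 6.68, 9.33 and 7.53 in eosinophilic lungs and 9.94, 10.99 and 10.11 in control lungs. Neutrophilic and eosinophilic lungs lay below all control lungs, but spread over more than a log2 unit, and the mixed lungs overlapped the control range. The differences from control without mouse 7 were -2.04 ± 0.70 in the neutrophilic, -0.35 ± 0.70 in the mixed and -1.92 ± 0.79 in the eosinophilic model, at adjusted p of 0.0906, 0.983 and 0.248. Its SD within groups over the 11 arrays was 1.15, the largest of the 9 genes, and Scgb1a1 had the smallest at 0.20. When the 3 arrays of low range were left out, Bpifa1 was called lower in the neutrophilic model by 2.34 at an adjusted p of 0.0282.

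None of 14 other BPI fold and lipid-binding genes was called by limma in any model in either fit. At an unadjusted p under 0.05 it counted 0, 0 and 4 in the neutrophilic, mixed and eosinophilic models with 12 arrays, and 0, 2 and 2 without mouse 7. It counted 14.7%, 7.95% and 28.2% of all genes with 12 arrays, and 23.1%, 12.9% and 16.4% without mouse 7. The counts of the 14 were thus near or below the shares of all genes. The 14 genes had median differences without mouse 7 of 0.25 in the neutrophilic, 0.0064 in the mixed and 0.40 in the eosinophilic model. Lbp, the lipopolysaccharide-binding protein, differed from control by 1.17 in the mixed model at an adjusted p of 0.15. Pltp, the phospholipid transfer protein, differed by -0.84 in the eosinophilic model at 0.287.

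**Figure D4:**
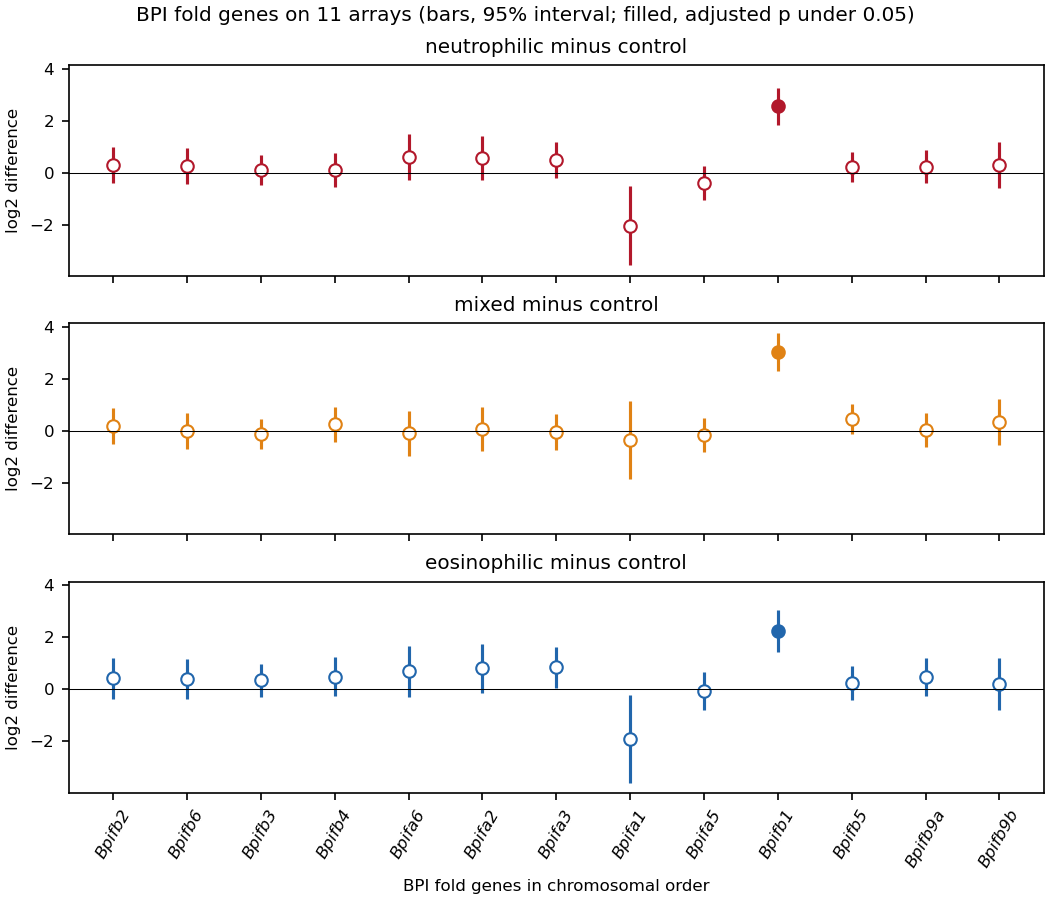
Log2 difference from control without mouse 7 for the 13 BPI fold genes of the cluster in their chromosomal order, in the neutrophilic, mixed and eosinophilic models. Bars are 95% confidence intervals and filled points have an adjusted p under 0.05; Bpifb1 is the filled point in each panel, and the intervals of Bpifa1 lie below 0 in the neutrophilic and eosinophilic panels.

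Cckar encodes a receptor for cholecystokinin, a peptide known mainly from gut and brain. Its log2 values were 5.50, 5.71 and 5.98 in neutrophilic lungs, 6.88, 6.18 and 6.13 in mixed lungs, 6.005, 7.44 and 7.35 in eosinophilic lungs and 8.37, 8.78 and 8.24 in control lungs. All treated lungs lay below all control lungs, and neutrophilic lungs lay below all others. Cckar fell by 2.73 ± 0.39 in the neutrophilic and by 2.06 ± 0.39 in the mixed model with 12 arrays (SE, log2 scale), 6.65-fold and 4.18-fold lower, at adjusted p of 0.00813 and 0.04 in limma. The eosinophilic difference was -1.53 ± 0.39 at an adjusted p of 0.0797, and -1.07 ± 0.30 at 0.108 without mouse 7.

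The neutrophilic call of Cckar was lost without control mouse 1 or 2, at adjusted p of 0.0586 and 0.0616. The mixed call was lost without any 1 of the 3 control or 3 mixed mice, at adjusted p between 0.0944 and 0.256, while mouse 7 stayed in, and after median centring, at 0.151. Without mouse 7 both were called, at 9.93e-05 and 0.00109. The group means then ran in the order neutrophilic 5.73, mixed 6.40, eosinophilic 7.40 and control 8.46, with adjusted p of 0.618, 0.514 and 0.108 between neighbours.

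The other genes of the axis were near the low end of the arrays. Cckbr, the second cholecystokinin receptor, averaged 3.85 in neutrophilic, 4.04 in mixed, 4.37 in eosinophilic and 3.97 in control lungs without mouse 7, and the peptides Cck and Gast averaged between 3.78 and 5.21. Limma called none of the 3 in any model in either fit, and counted 1, in the neutrophilic model without mouse 7, at an unadjusted p under 0.05, against 23.1% of all genes.

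Between the models, 0 of the 9 genes were called with 12 arrays, where 0% of all genes were called for neutrophilic against mixed, 0.115% for neutrophilic against eosinophilic and 0.00502% for mixed against eosinophilic. Limma counted 1, 4 and 5 of the 9 at an unadjusted p under 0.05 in these comparisons, against 3.1%, 10.2% and 16.7% of all genes. Without mouse 7, 1 gene was called: Cckar was lower in the neutrophilic than in the eosinophilic lungs by 1.67 ± 0.30 (SE), 3.17-fold, at an adjusted p of 0.0476. All genes were called at 0%, 0.191% and 0.0502% in that fit.

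Across the 11 arrays without mouse 7, Aldh1a1 and Cckar had a Pearson correlation of 0.91 and Cyp2f2 and Pon1 of 0.90, the highest of 36 pairs. The most negative pair was Scgb1a1 and Aldh1a1 at -0.81, and Bpifb1 ran against Cckar at -0.78 and against Pon1 at -0.76. These points share the groups: after the group means were subtracted the same pairs, in the order named, had 0.57, 0.65, -0.34, 0.69 and 0.19. For the 12 arrays, the correlation of a gene's value with the array's SD was highest for Cyp2f2 and Aldh1a1, at 0.86 each, and lowest for Cckar, at 0.40, and the part of array range in each result was not tested beyond the fits given.

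Bpifb1 had its closest patterns over the 11 arrays, among 7364 genes compared, in Muc5b, Aldh1a3 and Slc26a4, at Pearson correlations of 0.98, 0.97 and 0.96. Muc5b encodes a gel-forming airway mucin and Slc26a4 the anion exchanger pendrin. Muc5b had log2 values of 8.76, 8.62 and 9.27 in neutrophilic lungs, 9.52, 9.16 and 8.54 in mixed lungs, 4.70, 7.83 and 8.53 in eosinophilic lungs and 5.72, 6.66 and 6.07 in control lungs. As for Bpifb1, every treated lung but mouse 7 lay above the control lungs. Without mouse 7 Muc5b rose by 2.73 in the neutrophilic, 2.92 in the mixed and 2.03 in the eosinophilic model. The adjusted p values were 0.000451, 0.00036 and 0.0217 in limma. Muc5b was picked for its likeness to Bpifb1 on these same arrays, so its rise and these p values are not separate support. Cckar was closest to Ednrb, Numa1 and Armcx1 (0.97 each), and Aldh1a1 to Dtna (0.98), Pde9a and Cd36 (0.97 each). Pon1 was closest to C1qtnf2 (0.97), Arhgap32 (0.97) and Plce1 (0.96), and Cyp2f2 to Mon2 (0.98), Ankrd46 (0.97) and Plce1 (0.96). Scgb1a1 was closest to Snord57 (0.94), Snord82 (0.89) and Rprl1 (0.87), and Scgb3a1 to Znrf1 (0.94), Kcnj15 (0.93) and Trim56 (0.92). Scgb3a2 was closest to Leng8 (0.95), Ccdc17 (0.92) and Sfi1 (0.91), and Bpifa1 to Lss (0.87), Nrarp (0.87) and Tvp23b (0.85).

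Other genes known from club cells were tested as a list. Of 15 tested, 4 were called lower (Gsta3, Cyp4b1, Aldh1a7 and Gabrp) and 2 higher (Nupr1 and Lypd2) in the neutrophilic model without mouse 7, 0 lower and 1 higher (Nupr1) in the mixed model, and 0 in either direction in the eosinophilic model. Their medians were -0.88, -0.29 and -0.64. No member of the list was called by limma with 12 arrays, where 5, 3 and 10 of the 15 had an unadjusted p under 0.05 in the neutrophilic, mixed and eosinophilic models. Without mouse 7 these counts were 11, 7 and 5. The shares of all genes at that p were 14.7%, 7.95% and 28.2% with 12 arrays, and 23.1%, 12.9% and 16.4% without mouse 7. In the latter fit 7.23%, 1.57% and 0.883% of all genes were called lower and 2.24%, 1.41% and 0.451% higher. Aldh1a7 is on this list and on that of the aldehyde dehydrogenases. Nupr1, a stress-induced chromatin protein, rose by 1.68 in the neutrophilic and 1.63 in the mixed model without mouse 7, at adjusted p of 0.00609 and 0.0144.

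Markers of other cells were measured beside these genes. The 6 general epithelial markers averaged between 8.12 and 9.16 in neutrophilic, 8.56 and 9.26 in mixed, 8.81 and 9.11 in eosinophilic lungs without mouse 7 (5.43 on mouse 7) and 8.68 and 9.20 in control lungs. Limma called none of them in either fit, and at an unadjusted p under 0.05 it counted 1 in the eosinophilic model with 12 arrays and 1 each in the neutrophilic and mixed models without mouse 7. The shares of all genes at that p were 28.2% in the first case and 23.1% and 12.9% in the others. The 5 goblet cell markers averaged between 8.79 and 9.12 in neutrophilic, 9.22 and 9.30 in mixed, 8.11 and 8.58 in eosinophilic lungs without mouse 7 (5.69 on mouse 7) and 4.69 and 5.17 in control lungs. All 5 were called higher in the neutrophilic and mixed models and 4 in the eosinophilic model without mouse 7. Clca1, a secreted regulator of mucus, rose by 6.91, 7.35 and 6.17 at adjusted p of 4.77e-08, 2.08e-08 and 9.28e-07, the goblet cell secretory product Muc5ac by 2.62, 2.67 and 1.55 at 0.000162, 0.000182 and 0.031, and Agr2 and Slc26a4 were called in all 3 models. Tff2, a trefoil peptide, was called in the neutrophilic and mixed models, and in the eosinophilic model its difference was 1.35 at an adjusted p of 0.105. On 12 arrays limma called 4, 4 and 0 of the 5 higher in the neutrophilic, mixed and eosinophilic models, and all 5 had an unadjusted p under 0.05 in the eosinophilic model, against 28.2% of all genes. The shares of all genes called higher were 0.662%, 0.326% and 0.0752% on 12 arrays, and 2.24%, 1.41% and 0.451% without mouse 7.

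Of 7 ciliated cell markers, 2 were called lower in the neutrophilic model (Sntn and Dnah5), 0 in the mixed and 1 (Sntn) in the eosinophilic model without mouse 7. Of 6 alveolar type 1 markers 3, 2 and 1 were called lower, and of 7 alveolar type 2 markers 1, 1 and 0. Of 7 leukocyte markers 3, 3 and 0 were called higher, and of 3 basal cell markers limma called none. With 12 arrays 1, 0 and 1 ciliated and 2, 0 and 1 alveolar type 1 markers were called lower. In that fit no alveolar type 2 or basal marker was called, and 3, 0 and 0 leukocyte markers were called higher. At an unadjusted p under 0.05 without mouse 7, limma counted 3, 1 and 2 ciliated markers in the neutrophilic, mixed and eosinophilic models. In the same order it counted 4, 3 and 3 alveolar type 1, 1, 2 and 2 alveolar type 2, and 3, 3 and 1 leukocyte markers, and 0 basal markers. The shares of all genes at that p were 23.1%, 12.9% and 16.4%. Without mouse 7, 7.23%, 1.57% and 0.883% of all genes were called lower and 2.24%, 1.41% and 0.451% higher. With 12 arrays the shares were 1.45%, 0.145% and 0.421% lower and 0.662%, 0.326% and 0.0752% higher. The part of these other cells in the values of the 9 genes was not tested.

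Of 19 regulators of airway secretory cells, Cebpd was called higher in the neutrophilic and mixed models without mouse 7, by 1.79 and 1.80 at adjusted p of 0.00329 and 0.00674 in limma, and none was called with 12 arrays or in the eosinophilic model. At an unadjusted p under 0.05 limma counted 5, 5 and 10 of the 19 in the neutrophilic, mixed and eosinophilic models with 12 arrays. It counted 14.7%, 7.95% and 28.2% of all genes. Without mouse 7 the counts were 10, 7 and 10 of the 19, against 23.1%, 12.9% and 16.4% of all genes. The values that follow are without mouse 7. Nkx2-1, a lineage factor of lung epithelium, differed from control by -0.67 in the neutrophilic, -0.95 in the mixed and -0.68 in the eosinophilic model. Its adjusted p values were 0.101, 0.0505 and 0.233 in limma. Spdef, a factor of goblet cell fate, differed by 0.65, 0.73 and 0.41 at adjusted p of 0.177, 0.233 and 0.501. The median difference of the 19 was -0.36, -0.21 and -0.51.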

How the data were processed

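The deposited values are log2 intensities per probe set. Per the submitters' processing notes, Expression Console of Affymetrix computed them by RMA, with no version given, and the base was taken from the range of values. RMA corrects background, normalises quantiles between arrays and summarises probes. Labelling started from 300 ng of RNA, per the labels. No further normalisation was applied, and 0 value columns were mapped to no sample.

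Of 34760 probe sets, 21640 had a single gene symbol in the platform annotation, 1321 had several and 11799 were not listed. Each of 19937 genes was represented by its probe set of highest mean. The models were fitted with limma 3.58.1 (lmFit, eBayes) under R 4.3.3: a mean for each of 4 groups over all 12 arrays, two-sided p adjusted by the Benjamini-Hochberg method over all genes within a comparison, and 95% confidence intervals of single genes that were not adjusted. The fit was tested on simulated data with known changes. Their spread was taken without mouse 7 and they held no array of low range, so that test does not cover the effect of such arrays. The labels give no batch, and nothing besides mouse numbers says how mice were housed or processed.

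The 9 genes, the lists beside them and the tests were chosen with earlier results of these data known. Named genes were all 9, up to 4 by smallest p per list and comparison, members of the paraoxonase, cholecystokinin, regulator and goblet lists, and per gene the 3 of highest correlation over 11 arrays with a mean of at least 6 and an SD of at least 0.3; genes called and named beyond these complete a count and were chosen after their values were seen. Listed genes without a single-symbol probe set were not tested. Alternatives were a filter on dim genes, which asked for 3 or more arrays at a log2 value of 5 or above, median centring, quantile normalisation, trended robust variances, the mean of a gene's probe sets, the array SD as a covariate, fits of only the groups compared, and leaving out mouse 7, the 3 arrays of low range, or 1 array at a time.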

Additional observations from a re-analysis of the deposited data

Results flagged for a closer look

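Cckar was lower in the neutrophilic than in the eosinophilic lungs, with a log2 difference of -1.67 (SE 0.30) without eosinophilic mouse 7, at an adjusted p of 0.0476 in limma. It is given here because the test of the difference between the models passed the threshold in that fit. That fit had 2 eosinophilic arrays, of which that of mouse 9 was of low range. With all 12 arrays the difference was -1.20 ± 0.39 (SE) at an adjusted p of 0.407. It was called under 3 of 14 settings, and in the limma fit of only those groups the adjusted p was 0.895. All 3 neutrophilic values, 5.50, 5.71 and 5.98, lay below the eosinophilic values 6.005, 7.44 and 7.35, the first of which is mouse 7.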

How the results depend on the processing

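Pon1 against control in the neutrophilic lungs was called under all 15 settings, and in the eosinophilic lungs under 13 of 14, failing in the fit of only those groups. The number of the 9 genes called in the neutrophilic model was 4 with the array SD as a covariate, 5 without mouse 7, 7 without the 3 arrays of low range and 6 with only the groups compared, and 1 to 5 when 1 array was left out. In the mixed model it was 0 after median centring, 4 with the array SD, 6 without the low-range arrays, 5 with only the groups compared, and 0 to 3 when 1 array was left out. In the eosinophilic model it was 1 after median centring, 0 with only the groups compared, and 1 to 7 when 1 array was left out, 7 without mouse 8, when arrays of low range were the ones left. Between neutrophilic and eosinophilic lungs it was 3 with the array SD, 1 without mouse 7 and 1 without the low-range arrays, and 0 to 2 when 1 array was left out. Between mixed and eosinophilic lungs it was 0 to 5, 5 without mouse 8. The F test called 1 after median centring, 5 with the array SD, 7 without mouse 7 and 7 without the low-range arrays, and 1 to 7 when 1 array was left out. Counts over all genes also moved between settings. With 12 arrays limma called 421, 94 and 99 of all genes in the neutrophilic, mixed and eosinophilic models. Without mouse 7 it called 1889, 596 and 266. The F test called 176 and 918 of all genes in these fits. For the other settings the counts over all genes are not given. A shift among the 9 there was not separated from a shift over all genes. The causes were not tested.

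Signs turned for 15 uncalled differences of 783 single-gene values under an alternative. With the array SD as a covariate these were Scgb1a1 eosinophilic against control (0.16), Cyp2f2 neutrophilic against mixed (0.19), and Aldh1a1 neutrophilic against eosinophilic (-0.23) and mixed against eosinophilic (-0.14). Without the low-range arrays they were Aldh1a1 neutrophilic against eosinophilic (-1.13) and mixed against eosinophilic (-0.28), and Bpifa1 neutrophilic against eosinophilic (-1.32). With quantile normalisation, Scgb3a2 neutrophilic against mixed was 0.084 and Bpifa1 neutrophilic against eosinophilic -0.031. When 1 array was left out, Aldh1a1 ran between -0.86 (without mouse 7) and 2.74 for neutrophilic against eosinophilic and between -0.057 (without mouse 7) and 3.54 for mixed against eosinophilic. Bpifa1 ran between -0.12 (without mouse 7) and 1.29 for neutrophilic against eosinophilic, with -0.069 without neutrophilic mouse 25, and between -1.02 and 0.098 (without mixed mouse 17) for mixed against control. Scgb3a2 ran between -0.29 and 0.085 (without mixed mouse 16) for neutrophilic against mixed. The filter on dim genes kept 13370 genes and all 9 members. No paired analysis was possible because the groups share no mouse numbers.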
